A study of Homo sapiens with 2 samples.

Results

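The genes through which a cell shows peptides on major histocompatibility complex (MHC) class I molecules were examined in bulk RNA-seq of doxorubicin-resistant SUM159 cells. They were 9 of the 23368 gene symbols in the count files, taken by symbol from a fixed list, and 5 of them lie inside the MHC region of chromosome 6 (HLA-B, HLA-C, HLA-E, TAP1 and TAP2), against 4 outside it (B2M, ERAP1, ERAP2 and NLRC5). SUM159 is an established triple-negative breast cancer line, labelled here with the genotype Wt. Its attached cells were exposed to rising doses of doxorubicin, a topoisomerase II poison, with recovery in medium without the drug, until they were resistant. Both libraries, replicates 1 and 2, came from this 1 condition. Untreated cells were not analysed here, so the values are levels in resistant cells and not changes caused by resistance. It is not stated whether separate cultures gave the replicates, and the difference between them may be technical.

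An MHC class I molecule is a heavy chain, such as those encoded by HLA-B, HLA-C and HLA-E, bound to the light chain beta-2 microglobulin, encoded by B2M. Peptides cut in the cytosol are pumped into the endoplasmic reticulum by the transporter made of TAP1 and TAP2, and there the aminopeptidases ERAP1 and ERAP2 trim them to the length that the groove of the heavy chain accepts. NLRC5 is the transactivator that drives the promoters of class I genes and B2M, and tumor cells that lose any of these steps can become poorly visible to cytotoxic T cells.

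The promoters of the 3 most abundant members share a sequence pattern, and they are shown because this is what HLA-B and HLA-C, inside the MHC region, have in common with B2M, outside it. Promoters of 7 of the 9 members were found in the RefSeq table (GRCh38.p14), each from 250 bases before to 50 bases after an annotated start. HLA-E and NLRC5 had no entry, so it is not known here whether HLA-E, the heavy chain gene with few counts, holds the pattern. The pattern was chosen after the counts had been seen, and a link between it and the level of a gene was not tested. Each promoter found also had a single exact match in GRCh37, the build that corresponds to the hg19 of the count files. The stretches below lie at chr6:31324907-31325206 on the minus strand for HLA-B, chr6:31239820-31240119 on the minus strand for HLA-C and chr15:45003465-45003764 on the plus strand for B2M. They are written 5′ to 3′. Capitals mark TGACG, the core of the site that CREB and ATF proteins bind, followed on the same strand by ATTGG, the reverse of the CCAAT box that NF-Y binds. In B2M capitals also mark 2 overlapping matches to GAAA, any 2 bases and GAAA again, the spacing of the interferon-stimulated response element.
HLA-B: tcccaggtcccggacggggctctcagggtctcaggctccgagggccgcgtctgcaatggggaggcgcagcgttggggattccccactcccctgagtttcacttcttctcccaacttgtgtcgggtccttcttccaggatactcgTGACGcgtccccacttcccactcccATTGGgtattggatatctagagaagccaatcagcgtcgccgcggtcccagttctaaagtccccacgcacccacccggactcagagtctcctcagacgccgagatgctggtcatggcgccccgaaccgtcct
HLA-C: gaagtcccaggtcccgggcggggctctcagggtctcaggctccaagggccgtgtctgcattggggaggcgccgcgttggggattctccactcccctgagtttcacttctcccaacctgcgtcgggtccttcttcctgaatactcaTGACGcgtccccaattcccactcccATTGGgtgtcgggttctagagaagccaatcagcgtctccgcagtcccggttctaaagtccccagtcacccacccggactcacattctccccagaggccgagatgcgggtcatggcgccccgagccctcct
B2M: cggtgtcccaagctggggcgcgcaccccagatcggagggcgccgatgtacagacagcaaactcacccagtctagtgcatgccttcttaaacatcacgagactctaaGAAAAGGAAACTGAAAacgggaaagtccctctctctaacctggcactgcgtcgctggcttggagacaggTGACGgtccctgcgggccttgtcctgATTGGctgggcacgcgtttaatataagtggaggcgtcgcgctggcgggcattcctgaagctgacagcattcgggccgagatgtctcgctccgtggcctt
In HLA-B and HLA-C the spacer between TGACG and ATTGG was 20 bases, and in B2M it was 21 bases. The pair began 106 bases before the start in HLA-B, 105 bases before it in HLA-C and 75 bases before it in B2M. Searched on both strands with a spacer of 15 to 25 bases, the pair was present in 157 of 35116 promoters in the table, or 0.447%. No promoter of TAP1, TAP2, ERAP1 or ERAP2 held it, which says only that these letters are not in these windows.

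The promoter of TAP2 and one of the 2 promoters listed for TAP1 held the interferon element spacing without the pair, and they are shown for that contrast. The other TAP1 promoter held neither and is not shown. The TAP1 stretch lies at chr6:32821432-32821731 and TAP2 at chr6:32806467-32806766 of GRCh37, both on the minus strand, and capitals mark GAAA, any 2 bases and GAAA, or on the other strand TTTC, any 2 bases and TTTC.
TAP1: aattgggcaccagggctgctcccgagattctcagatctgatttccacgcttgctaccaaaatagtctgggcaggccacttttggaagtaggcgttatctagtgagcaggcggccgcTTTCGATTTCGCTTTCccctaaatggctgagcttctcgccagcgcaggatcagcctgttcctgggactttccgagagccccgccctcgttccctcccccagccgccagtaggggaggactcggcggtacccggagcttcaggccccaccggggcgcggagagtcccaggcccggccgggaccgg
TAP2: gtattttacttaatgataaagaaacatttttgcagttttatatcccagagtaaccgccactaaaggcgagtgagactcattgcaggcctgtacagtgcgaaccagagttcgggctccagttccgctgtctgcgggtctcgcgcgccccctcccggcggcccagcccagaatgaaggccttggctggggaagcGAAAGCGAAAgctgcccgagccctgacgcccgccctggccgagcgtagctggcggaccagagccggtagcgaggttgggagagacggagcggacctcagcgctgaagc
In TAP1 the capitals are 2 overlapping matches. One of the 2 promoters listed for ERAP1 and one of the 2 listed for ERAP2 held a single match each. Over all promoters in the table this element was present in 3.57%, on either strand. These matches describe the reference sequence and were not tested for binding in these cells. Only exact matches were searched, so promoters without one, HLA-B and HLA-C among them, may still hold a variant of the element.

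Light and heavy chain transcripts were abundant in the doxorubicin-resistant cells, with HLA-B and HLA-C the 2 highest by mean count of 149 protein-coding genes in the MHC region. HLA-B (chromosome 6 of GRCh37, 31321649 to 31334844, minus strand) had 13228 counts in replicate 1 and 8836 in replicate 2. Scaled to 1000000 counts of the library (CPM), this is 533 ± 58.5 CPM (SD, n = 2). HLA-C (31236526 to 31239907, minus strand) had 9763 and 6374 counts, or 389 ± 49.0 CPM (SD, n = 2). Both classical heavy chain genes were therefore high in either library. B2M (chromosome 15, 45003556 to 45011049, plus strand) was the highest of the 9 genes, with 41932 and 24154 counts, or 1581 ± 337 CPM (SD, n = 2). Of all symbols in the files, 99.8% had a lower mean count than B2M, 99.1% a lower one than HLA-B and 98.4% a lower one than HLA-C.

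HLA-E encodes a non-classical heavy chain that presents leader peptides of other class I molecules to receptors of natural killer cells, and it was almost without counts. It lies at 30457286 to 30461971 on chromosome 6, on the plus strand, and had 12 counts in replicate 1 and 11 in replicate 2. This is 0.566 ± 0.0642 CPM (SD, n = 2), and 95% exact binomial intervals, which cover counting error only, ran from 0.269 to 0.910 CPM in replicate 1 and from 0.305 to 1.09 CPM in replicate 2. A count of 0 would allow up to 0.130 and 0.167 CPM, taken as 3 counts, so HLA-E was above that limit in both libraries but never by much. CPM per kilobase of exon take gene length into account. On that scale HLA-B was 697 times as high as HLA-E in replicate 1 and 508 times in replicate 2. HLA-C was 948 and 675 times as high as HLA-E. These ratios compare counts, and a low count of HLA-E cannot be read as a low level of its transcript, as set out below. The size of these ratios depends on the length used, since per kilobase of the canonical transcript, a length tried after seeing the data, HLA-B was 1829 and 1333 times and HLA-C 1344 and 957 times as high as HLA-E.

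The transporter genes also had few counts, and TAP1 differed strongly between the libraries. TAP2 (32789610 to 32806516, minus strand) had 72 and 74 counts, or 3.62 ± 0.700 CPM (SD, n = 2). TAP1 (32812986 to 32821593, minus strand) had 3 counts in replicate 1 and 69 in replicate 2, or 0.130 and 3.84 CPM. Replicate 1 was thus at the limit that a count of 0 allows, whereas replicate 2 was close to the level of TAP2. The CPM of TAP1 in replicate 2 was 29.5 times that in replicate 1, with an exact 95% counting interval from 9.67 to 146. A mean over both libraries describes neither of them for this gene. TAP1 overlaps PSMB9 in the annotation, and since the strand setting of the counting was not given, reads in the overlap cannot be assigned with certainty.

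The trimming enzymes and the transactivator, all outside the MHC region, were well expressed. ERAP1 (chromosome 5, 96096514 to 96143803, minus strand) had 2310 and 2391 counts, or 117 ± 23.1 CPM (SD, n = 2). Its neighbor ERAP2 (96211690 to 96255407, plus strand) had 2367 and 2158 counts, or 111 ± 12.2 CPM (SD, n = 2). Per kilobase of exon ERAP1 had 12.6 and 16.7 CPM and ERAP2 14.8 and 17.3 CPM, so the difference between these genes was smaller than that between the libraries. NLRC5 (chromosome 16, 57023397 to 57117443, plus strand) had 1394 and 1360 counts, or 68.1 ± 10.7 CPM (SD, n = 2). It was the lowest of the 4 genes outside the region and still above 84.7% of all symbols. ERAP1 overlaps CAST, which lies on the opposite strand and had 5531 and 5607 counts, so part of its reads may likewise be uncertain.

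**Figure D1:**
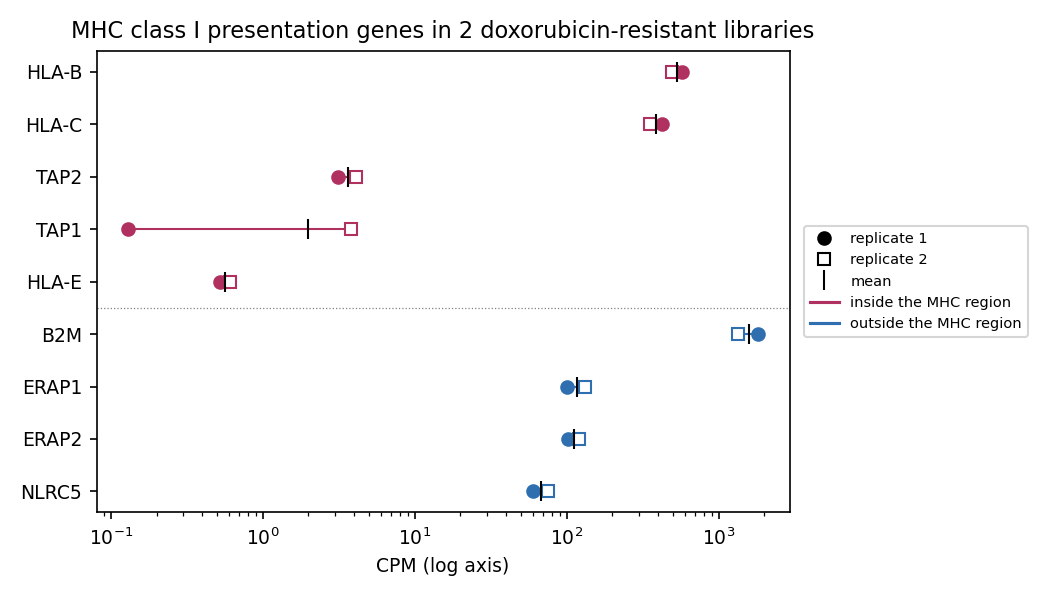
CPM of the 9 genes on a log axis, the 5 inside the MHC region above the 4 outside it. Filled circles are replicate 1, open squares replicate 2 and black ticks their mean. HLA-B at 533 CPM and HLA-C at 389 CPM stand far above TAP2, TAP1 and HLA-E, while the 4 genes outside run from NLRC5 at 68.1 CPM to B2M at 1581 CPM, and TAP1 alone has libraries far apart, at 0.130 and 3.84 CPM.

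Ordered by CPM per kilobase of exon, the genes fell into 3 tiers. B2M was at the top with 507 ± 108 (SD, n = 2), followed by HLA-C with 155 ± 19.5 and HLA-B with 115 ± 12.7. The order of HLA-C and HLA-B turned round when the canonical transcript set the length, where HLA-B had 347 ± 38.1 and HLA-C 252 ± 31.8 CPM per kilobase, so it is not settled. The middle tier held ERAP2, ERAP1 and NLRC5, the last with 5.49 ± 0.863 CPM per kilobase. The low tier held TAP2 with 0.349 ± 0.0676, HLA-E with 0.194 ± 0.0220, and TAP1 with 0.0275 in replicate 1 and 0.810 in replicate 2. TAP1 was thus the lowest of all in replicate 1 and above TAP2 and HLA-E in replicate 2. B2M exceeded HLA-B by 4.70 times per kilobase of exon in replicate 1 and 4.05 times in replicate 2, and HLA-C by 3.45 and 3.04 times. Per kilobase of the canonical transcript B2M exceeded HLA-B by 5.16 and 4.45 times and HLA-C by 7.02 and 6.20 times, so the size of the second ratio rests on the length used. ERAP1 exceeded TAP2 by 41.8 and 42.1 times per kilobase of exon, and this ratio was nearly equal in the libraries. It compares counts too, and a low count of TAP2 cannot be read as a low level of its transcript.

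A mean count of 20 or more, the cut on low counts used here and called the minimum below, was reached by 4 of the 5 members inside the MHC region and by 4 of the 4 outside it, HLA-E being the one below. The background for this count was 61.9% of 18708 protein-coding genes matched to the annotation and 52.8% of all symbols. The median level was 0.419 CPM per kilobase of exon over the 5 members inside and 15.3 over the 4 outside, beside 1.65 over all protein-coding genes. The median inside is the mean of TAP1, the gene whose libraries differed most among the members. After adding 0.1 CPM per kilobase and taking log2, the median inside minus the median outside was −4.90, and it was −5.10 in replicate 1 and −4.23 in replicate 2. The median hides a split among the members inside, since HLA-B and HLA-C were higher than ERAP1, ERAP2 and NLRC5 in both libraries, whereas HLA-E, TAP1 and TAP2 were lower than all 4 members outside in both. Genes are not replicates of each other, and no test was made across them.

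The members inside lie in a stretch where most genes had few counts. From GABBR1 at 29523406 to KIFC1 at 33377673 on chromosome 6, 21 of 149 protein-coding genes reached the minimum, or 14.1%, against 503 of 831 on the rest of the chromosome, or 60.5%. Without the members, it was 17 of 144 genes. On the chromosomes of the members outside, the share was 66.1% on chromosome 5, 68.8% on chromosome 15 and 69.4% on chromosome 16. In the MHC region 71 of the 149 genes had no count in either library, against 173 of 831 on the rest of chromosome 6. HLA-B and HLA-C together held 77.1% of the counts of the region in replicate 1 (exact 95% interval 76.6 to 77.6%) and 77.0% in replicate 2 (76.4 to 77.6%). HLA-E, TAP1 and TAP2 together held 0.292% and 0.779%. HLA-E ranked 25 in the region by mean count, TAP1 14 and TAP2 12, so most genes of the region had fewer counts still. These ranks are not scaled for length, and that of TAP1 rests on libraries that differed strongly.

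**Figure D2:**
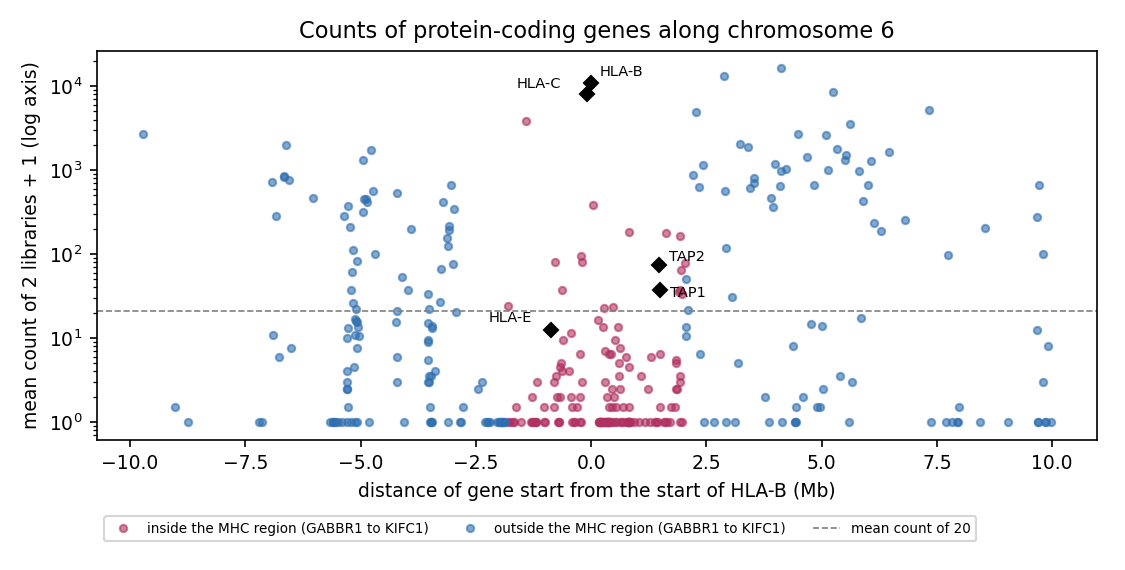
Mean count plus 1, on a log axis, of protein-coding genes on chromosome 6 against the distance of their start from that of HLA-B in Mb, red inside and blue outside the MHC region. Black diamonds are the 5 members inside, and a dashed line is drawn at a mean count of 20. HLA-B and HLA-C are the highest of the region, with mean counts of 11032 and 8069, amid a stretch in which 71 of 149 genes had no count.

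Genes of the region that nearly all cells use were low as well, and their levels stand beside those of the low members. Of 29 such genes listed without regard to antigen presentation, 8 reached the minimum, beside 14.1% of all protein-coding genes of the region. The median of the 29 was 0.198 CPM. BRD2, a chromatin reader, had 118 and 232 counts, the highest mean CPM of the 29, and the RNA helicase gene DDX39B had none. Per kilobase of exon WDR46, a gene of ribosome assembly, was higher, with 2.81 ± 0.203 CPM against 1.00 ± 0.611 CPM for BRD2 (SD, n = 2 each). The ribosomal protein gene RPS18 had 51 and 21 counts. Of 16 such genes on the rest of chromosome 6 all 16 passed, beside 60.5% of all protein-coding genes there, and their median was 110 CPM. By mean count they ran from RPS10 with 37 and 22 counts to the elongation factor gene EEF1A1 with 208037 and 138942. Both lists were chosen with earlier results of these data known, so 16 of 16 is no measure of the rest of the chromosome. HLA-E, TAP1 and TAP2 therefore lay in the range of transcripts that most cells need in quantity and that were also nearly uncounted here. Alternative sequences of the MHC region accompany hg19, and whether the reference held them and how reads with several matches were treated is not given in the sources used here. Their part in these counts was not tested, so a low count of HLA-E, TAP1 or TAP2 cannot be read as a low level of the transcript.

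Sequence shared with other annotated genes was measured for the members, because reads that match several genes are often left uncounted. The canonical transcript of each gene was divided into all windows of 100 bases, the read length of the libraries, and each window was looked for in the transcripts of every other gene of the GRCh37 annotation. HLA-E shared 0.612% of its 2449 windows, all with HLA-G, and HLA-C shared 0.277% of 1443. HLA-B shared 173 of 1437. TAP1 shared 18.6% of its windows, with the antisense gene PSMB8-AS1, and TAP2 shared 34.7%, with an overlapping gene. B2M, ERAP2 and NLRC5 shared none, and ERAP1 shared 7.32%. Over the 29 MHC region genes that most cells use the median was 0.455%, and 14 of them shared none. These windows cover the primary assembly alone, without alternative sequences.

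The genes beside the members on the chromosome add to this picture. MICA, which encodes a stress-induced ligand of the killer receptor NKG2D, follows HLA-B, with 501 and 262 counts and a mean of 18.2 ± 5.07 CPM (SD, n = 2). The immunoproteasome subunit genes PSMB9 and PSMB8 lie beside TAP1 and TAP2 and had 11 and 0 counts, and 1 and 0 counts. HLA-DOB and HLA-DMB, class II genes on the far sides of the TAP genes, had none. GNL1, which follows HLA-E, had 3 and 1 counts, and RPP21 before it had none. Low neighbors were not limited to the MHC region, since PATL2 and TRIM69 on both sides of the abundant B2M had 11 and 2 and 3 and 2 counts. LNPEP, the third aminopeptidase gene of the cluster on chromosome 5, had 136 and 355 counts.

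The wider pathway showed the contrast by position already seen for the region as a whole. Pathway genes were taken from 5 lists (peptide loading and proteasome, class I-like molecules, regulators, peptidases and class II genes). Inside the MHC region 2 of 14 reached the minimum, beside 14.1% of all its protein-coding genes, so this share is not particular to the pathway. Of the 14, 7 were class II genes, none of which passed. Outside the region 41 of 42 reached the minimum, 21 of them regulators, beside the 61.9% of all protein-coding genes. The lists were chosen with earlier results of these data known. In the loading step, TAPBP, which bridges the transporter and the heavy chain and lies inside the region, had 76 and 50 counts. Its relative TAPBPL, on another chromosome, had 509 and 342. The chaperone genes CANX, CALR and PDIA3 had 1627 ± 377, 939 ± 90.2 and 704 ± 27.6 CPM (SD, n = 2 each), and so the general folding machinery of the class I molecule was among the abundant transcripts. PSMB10, the immunoproteasome subunit outside the region, had 1317 and 668 counts, and the proteasome activator genes PSME1 and PSME2 had 313 ± 71.9 and 225 ± 45.6 CPM (SD, n = 2 each). All 7 genes of the loading list outside the region passed the minimum, against 1 of 3 inside it.

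**Figure D3:**
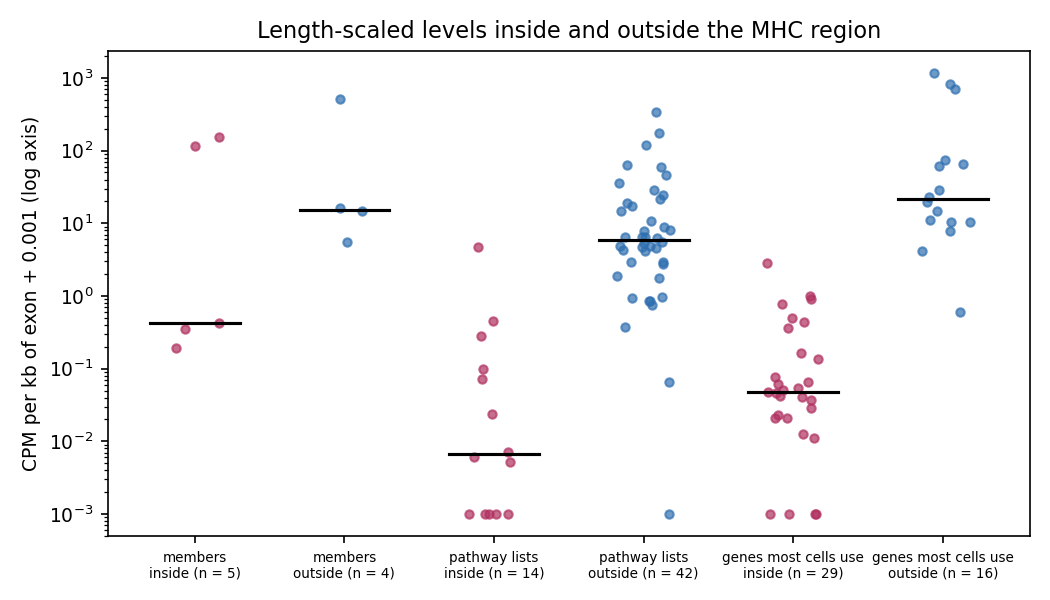
Mean CPM per kilobase of exon plus 0.001, on a log axis, for the members, the pathway lists and the genes most cells use, each inside (red) and outside (blue) the MHC region. Points are genes and black bars medians. The members inside spread widely around their median of 0.419, from HLA-E at 0.194 to HLA-C at 155, against a median of 15.3 for the members outside.

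Of 21 regulators of class I genes, none of which lies in the MHC region, all 21 reached the minimum, beside 61.9% of all protein-coding genes, with a median of 46.9 CPM. IRF1, which binds interferon elements such as those shown above, had 80.1 ± 10.9 CPM (SD, n = 2). RFX5, which with RFXAP and RFXANK forms the complex through which NLRC5 reaches class I promoters, had 87.1 ± 8.40 CPM (SD, n = 2), and RFXANK and RFXAP had 36.5 ± 8.19 and 6.84 ± 0.152 CPM (SD, n = 2 each). The genes of the proteins that bind the capitalised sites were also expressed, CREB1 with 50.1 ± 12.8, ATF1 with 23.1 ± 3.83 and NFYA with 32.8 ± 5.03 CPM (SD, n = 2 each). CIITA, the relative of NLRC5 that drives class II genes, was the lowest of the 21 in CPM and per kilobase of exon, with 38 and 23 counts. Per kilobase of exon NLRC5 had 5.49 ± 0.863 and CIITA 0.0649 ± 0.0116 CPM (SD, n = 2 each).

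Among class I-like genes, the other non-classical heavy chain genes HLA-F and HLA-G had 1 and 0 counts and no counts. MR1, which presents vitamin metabolites to mucosal T cells and lies on another chromosome, had 27.6 ± 3.18 CPM (SD, n = 2). Per kilobase of exon MICA inside the region had 4.71 ± 1.32 CPM, against 4.59 ± 1.55 CPM for ULBP2 and 2.92 ± 0.337 CPM for MR1 outside it (SD, n = 2 each). The NKG2D ligand genes outside the region, ULBP2 and ULBP1, had 6.13 ± 2.07 and 2.45 ± 0.392 CPM (SD, n = 2 each), and MICB inside it had 13 and 18 counts. Of the 7 listed class II genes inside the region none reached a mean count of 20. HLA-DRA was the highest of those listed, with 3 and 2 counts. HLA-DQB1, which was not on the list, had a higher mean count of 5. CD74, the class II invariant chain on another chromosome, had 46 and 25. Among cytosolic and other peptidases all 5 passed, beside 61.9% of all protein-coding genes. THOP1, which destroys class I peptides, was the highest at 130 ± 8.51 CPM, and LNPEP the lowest at 12.8 ± 9.78 CPM (SD, n = 2 each).

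The abundant class I transcripts came with few markers of blood cells, which also carry class I molecules at high levels. Of 6 leukocyte and antigen-presenting cell markers 2 reached a mean count of 20, CD14 with 356 and 137 counts and PTPRC with 48 and 31, and the T cell gene CD3E had none. Their summed level was 17.9 and 9.45 CPM in replicates 1 and 2. The mesenchymal gene VIM had 7542 ± 873 CPM (SD, n = 2), and the epithelial genes KRT18 and EPCAM had 346 ± 89.6 CPM (SD, n = 2) and 6 counts in each library. In such bulk samples, fewer cells that express a gene and less RNA in each cell cannot be told apart.

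For each gene the split of its counts between the libraries was tested with edgeR's exact binomial test against the library totals, which compares these 2 libraries and not conditions. Of the 9 members 7 differed at an adjusted p below 0.05, 4 of them higher in replicate 2 and 3 higher in replicate 1. The background was 57.7% of 13744 genes, with 30.1% higher in replicate 2 and 27.6% higher in replicate 1, so the number of members called is not particular to them. B2M, HLA-C and HLA-B were lower in replicate 2, by log2 ratios of −0.44, −0.26 and −0.22. ERAP1, NLRC5 and ERAP2 were higher in replicate 2, by log2 ratios of 0.41, 0.32 and 0.22. These 6 genes had large counts and small differences, and each lay within the range from the 5th to the 95th percentile of the 500 tested genes nearest to it in exonic length. HLA-E (adjusted p = 0.885 in edgeR) and TAP2 (adjusted p = 0.147 in edgeR) did not pass, which at these counts leaves room for ratios from 0.470 to 2.91 for HLA-E and from 0.939 to 1.85 for TAP2.

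TAP1 was the exception, with the second largest positive log2 ratio among the 13744 genes and an adjusted p of 1.63e-20 in edgeR. For the 500 genes nearest to it in length, 90% of log2 ratios lay between −0.72 and 0.71. Those genes were not matched for count, so this range does not measure the spread at counts as low as those of TAP1. Large differences were also seen at other low genes of the MHC region. Among 36 protein-coding genes of the region with at least 10 counts, 5 differed by more than 4-fold, TAP1 among them, or 13.9%. On the rest of chromosome 6 it was 6 of 557, or 1.08%. The sets were not matched for count, so these shares cannot be compared directly. PSMB9 with 11 and 0 counts and ATF6B with 10 and 0 were among the 5. ABCF1, an ABC family gene that acts in translation, went the other way from TAP1, with 146 and 11 counts. The biological coefficient of variation between the libraries over all genes was 22.2%.

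**Figure D4:**
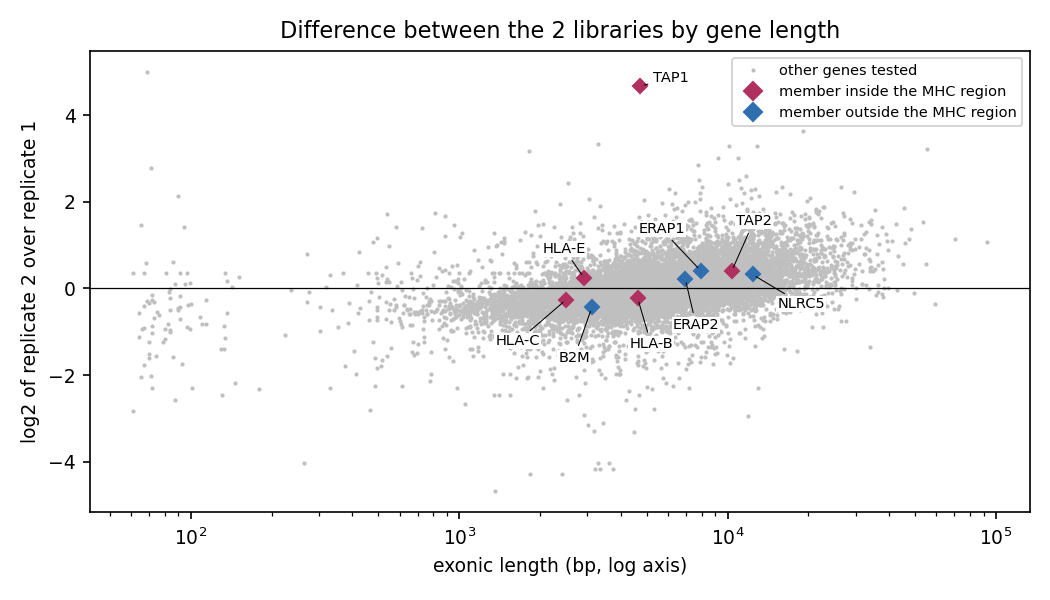
Log2 ratio of replicate 2 over replicate 1 against exonic length in bp on a log axis, for all genes tested (grey) and the members inside (red) and outside (blue) the MHC region. The members outside and 4 of the 5 inside lie within the grey cloud, between −0.44 for B2M and 0.41 for ERAP1, and TAP1 lies above it at 4.67.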

How the data were processed

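Polyadenylated RNA of 2 libraries of doxorubicin-resistant SUM159 cells, grown attached, was prepared by the authors with a directional kit and sequenced in single-end mode with reads of 100 bases. What the authors deposited for each library is a table of raw read counts by gene symbol. Per the paper and the submitters' processing notes, reads were checked with FastQC, mapped to hg19 with HISAT2 and assigned to genes with HTSeq, all in Galaxy. The notes name deepTools as well. How reads with several matches were handled, the versions, the annotation and the strand setting are not given in the sources used here. A read that fits several places is commonly dropped in such counting, which lowers the counts of genes with copies.

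The counts sum to 23044084 in replicate 1 and 17985508 in replicate 2, so that 1 count is 0.0434 and 0.0556 CPM. CPM were computed from these totals and divided by the exonic length, the union of all exons in GENCODE version 44 mapped to GRCh37. Of the symbols 90.6% were matched to 1 gene, 1851 of them through older symbols in RefSeq. A minimum mean count of 20 is one of the criteria for differential expression in the bulk RNA-seq methods, and it was used here alone, as a cut on low counts. With 1 condition no comparison between conditions could be made. The libraries were compared with edgeR's exact binomial test, adjusted after Benjamini and Hochberg across the 13744 genes whose counts summed to 10 or more. The procedure was tested first on simulated data that held counting error only. That does not show how it behaves with the larger spread between these libraries. The members and gene lists were chosen with earlier results of these data known. Named are all members, the highest or lowest genes of the lists and the genes beside members, and other list genes were chosen after their values were seen. Windows, promoters and motifs were likewise chosen after the counts had been seen. Some genes in the files are not reported here. Alternatives covered scaling, filter, tool, minimum count, region limits, pseudocount, gene length and each library left out. The tests ran in edgeR 4.0.16 under R 4.3.3, with DESeq2 1.42.0 for its size factors. Everything else ran in Python 3.11.15, with pandas 2.3.3 for tables, numpy 2.4.6 and scipy 1.17.1 for statistics, and matplotlib 3.10.9 for plots.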

Additional observations from a re-analysis of the deposited data

How the results depend on the processing

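The number of members that differed between the libraries was 7 with TMM and with DESeq2 scaling, without a filter on low counts and with Fisher's exact test, as in the main analysis. The number of members at the minimum count was 8, it was 9 at a minimum of 10 and 7 at a minimum of 50, and it was 7 to 8 when a library was left out, because TAP1 had 3 counts in replicate 1. For the MHC region the number of genes at the minimum was 21, it was 13 at a minimum of 50, 14 and 23 with narrower and wider limits and 17 to 19 with a library left out. The difference of the medians, inside minus outside, was −4.11 with a pseudocount of 0.5 and −3.53 with 1, by construction smaller, against −4.90 with 0.1. It ranged from −5.10 to −4.23 with a library left out and from −4.94 to −4.72 under the other scalings and lengths, of which the canonical transcript length was chosen after seeing the data. With that length 8 ratios between members per kilobase moved by more than the spread between the libraries, and the mean ratios of HLA-B to HLA-C and of ERAP1 to ERAP2 became 1.38 and 1.10, against 0.743 and 0.912 per kilobase of exon. No direction turned round among the 9 members in the library test under these alternatives. With 2 libraries, the SD rests on a single difference. No paired analysis was possible because a single condition was held.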
